A study of Rattus norvegicus with 9 samples.

Results

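PC12 cells given erastin together with PQR NPs were compared with PC12 cells given erastin alone, with 3 libraries in each group. The comparison used these 6 of the 9 libraries in the series, and the 16597 of 41078 transcripts that passed a filter on low counts in those 6. The other 3 libraries were untreated PC12 cells, and their levels are shown beside the treated ones without entering the main tests. They entered only an alternative fit on all 9 libraries. PC12 is a rat line from a pheochromocytoma of the adrenal medulla, labelled wild type here and described as neuronal-like. The series uses erastin to set up what it calls its PD model. PQR NPs are a nanodelivery system, and the labels say nothing of what it is made of. Neither dose nor time is stated in the labels. Nor do they tell whether replicates were cultured separately, so every p-value here rests on a spread between libraries that may be technical. None of the 9 libraries came from cells given PQR NPs without erastin.

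Erastin blocks the cystine/glutamate antiporter at the cell surface. Cystine is the source of the cysteine from which cells build glutathione, and the enzyme GPX4 uses glutathione to reduce lipid peroxides in membranes. Cells deprived of it can die by ferroptosis, an iron-dependent death driven by lipid peroxidation, which is studied as one route to the loss of dopamine neurons. PC12 cells make and store catecholamines and are a common stand-in for such neurons. No gene of these pathways can be pointed to here. The deposited table lists Ensembl transcript IDs without gene names, and 0 of its IDs matched the gene table used here. Transcripts are therefore described by abundance, size of change and rank, and 4 of them by ID.

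Adding PQR NPs to erastin changed about as many transcripts as it left without a call. In edgeR's quasi-likelihood test with Benjamini-Hochberg adjustment at 0.05, 8838 of the 16597 tested transcripts differed (53.3%). Of all tested transcripts, 4367 were higher with PQR NPs (26.3%) and 4471 were lower (26.9%). Both directions were thus nearly equal in number, and which of them held the majority turned with the scaling: 49.4% of the calls were rises, against 53.2% with scaling on the upper quartile. Scaling places the bulk of transcripts near no change (median log2 difference -0.00562 over all tested). The near-even split is therefore partly set by it, and a shift of all transcripts together could not be seen. The libraries of both groups did not overlap for 8759 of the 8838 called transcripts, as was the case for 10670 of all 16597 tested (64.3%); a call itself selects for such separation.

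The falls were larger than the rises. The median fall was 2.33-fold (interquartile range 1.68 to 3.60) and the median rise 1.73-fold (1.43 to 2.27). Among the called falls 2715 were of 2-fold or more, 934 of 4-fold or more and 121 of 16-fold or more. The corresponding numbers of rises were 1512, 230 and 27. At the other end, 1371 of the called rises and 722 of the called falls were under 1.5-fold.

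A stricter question is which transcripts changed by more than a stated fold, which edgeR tests with that fold as the null. Beyond 2-fold there were 1998 transcripts (12% of those tested, adjusted p of 0.05). Lower with PQR NPs were 1388 of them (8.36% of those tested) and higher were 610 (3.68%). Falls therefore made up 69.5% of the changes shown to exceed 2-fold, and 65.2% to 73.2% over all the alternatives tried. Beyond 1.5-fold the test called 2635 falls and 1795 rises. The plot of change against abundance shows the longer lower tail.

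**Figure D1:**
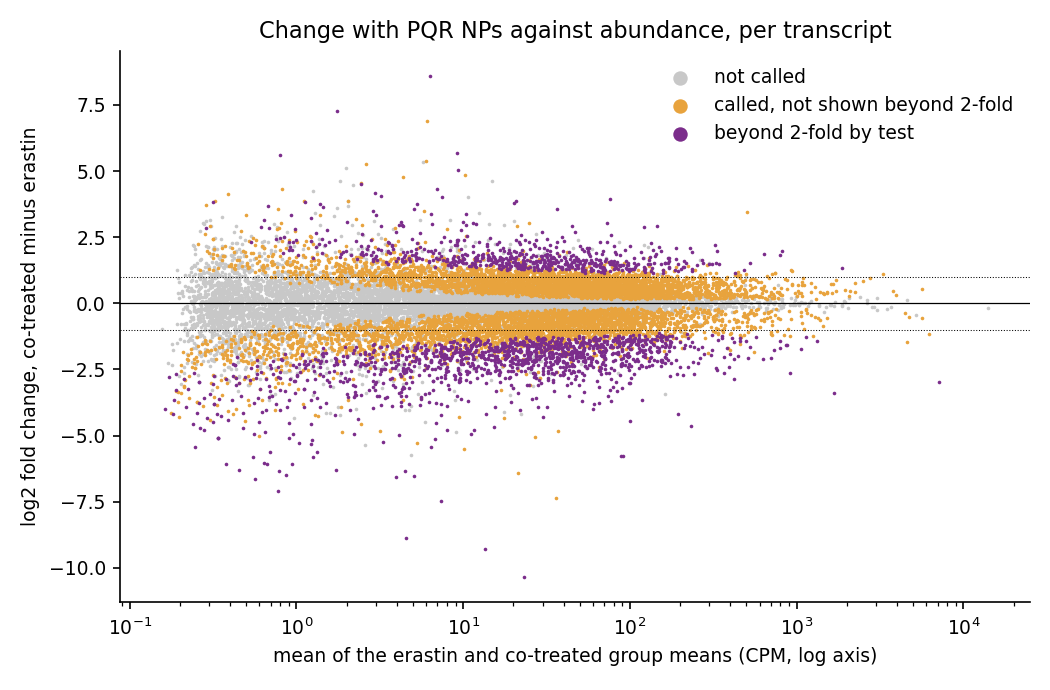
Each point is a tested transcript, with the mean of the erastin and co-treated group means in CPM (counts divided by the library's total and put on one scale, log axis) on the horizontal axis and the fitted log2 fold change, co-treated minus erastin, on the vertical axis. Grey points were not called, orange points were called at an adjusted p of 0.05, and purple points were shown to exceed 2-fold (dotted lines); transcripts at 0 in a whole group are left out, and more purple points lie below the lower line (1388 in all, those at 0 included) than above the upper one (610).

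The balance between rises and falls differed along the range of abundance. Tiers were set on the mean of both group means. Among the 2306 tested transcripts under 1 CPM, 139 rose and 363 fell, so that 72.3% of the calls were falls. Falls also led from 1 to 10 CPM, with 1068 against 779 rises (57.8%). From 10 to 100 CPM the split was near even, with 2541 higher and 2398 lower (48.6% falls). Rises led above that, with 872 against 618 falls from 100 to 1000 CPM (41.5% falls) and 36 against 24 in the highest tier, 1000 CPM or more (40% falls). The side that led in each tier was the same under the 3 other scalings and with DESeq2. In these tiers the tests beyond 2-fold did not follow that turn: falls outnumbered rises in each of them, with 170 against 71 from 100 to 1000 CPM and 5 against 1 at 1000 CPM or more.

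Sizes shrank as abundance grew. The median called fall went from 5.02-fold under 1 CPM to 2.07-fold from 10 to 100 CPM and 1.51-fold at 1000 CPM or more, and the median called rise from 3.47-fold to 1.67-fold and 1.39-fold. A low transcript needs a large change to be called, so these medians describe the calls and do not rank the tiers. The share of tested transcripts called, 21.8% under 1 CPM and 73.1% from 100 to 1000 CPM, depends on the count in the same way. Tiers were also set on the untreated libraries, which did not enter the main fit. Falls then made up 86.4% of the calls under 1 CPM (101 higher, 644 lower) and 22.4% at 1000 CPM or more (45 higher, 13 lower). Beyond 2-fold the upper tiers then turned as well: rises outnumbered falls by 116 to 63 from 100 to 1000 CPM and by 3 to 0 at 1000 CPM or more, while falls still led under 100 CPM. In composition the untreated libraries were nearer to the co-treated ones (10.2% to 13.1% of counts differing) than to the erastin ones (21.7% to 25.8%). Tiers set on them therefore tend to place falls low and rises high, so the steeper turn is no separate evidence.

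**Figure D2:**
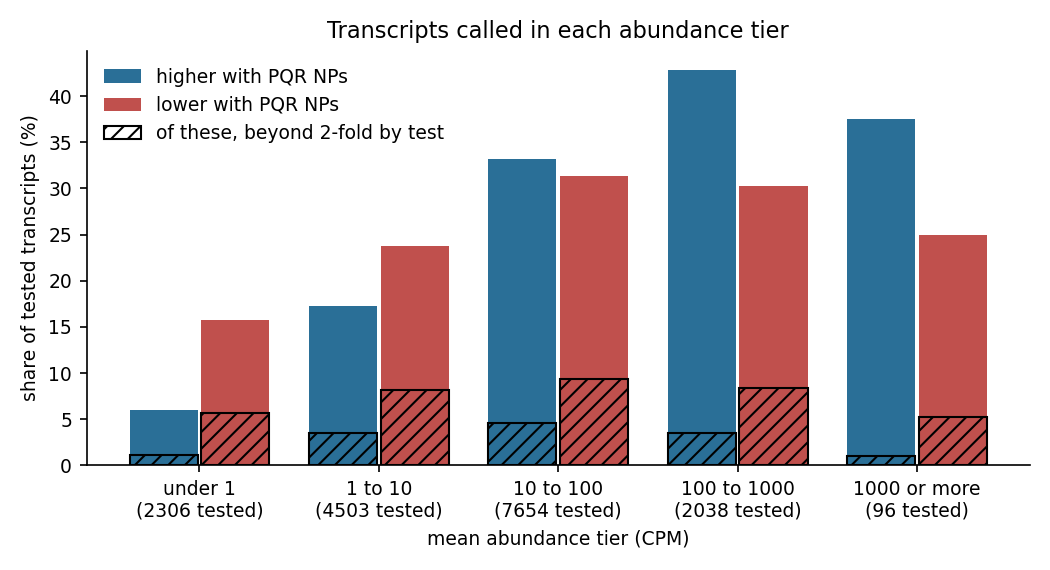
Bars give the percentage of tested transcripts in each abundance tier (CPM, number tested in brackets) that were higher (blue) or lower (red) with PQR NPs, and the hatched parts those shown to exceed 2-fold. Red bars exceed blue ones under 10 CPM, blue ones exceed red ones from 10 CPM upward, and the hatched red parts are the taller ones in all 5 tiers set this way; with tiers set on the untreated libraries, rises beyond 2-fold led from 100 CPM upward (116 against 63, and 3 against 0).

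Of the transcripts with no call, 7759 in all, only some can be said to have stayed close. The approximate 95% interval of the difference lay within 1.5-fold for 2142 of them (27.6%) and within 2-fold for 3758 (48.4%). For 1929 (24.9%) the interval reached beyond 4-fold on at least one side. The transcripts without a call thus mix small differences with ones that these 6 libraries do not bound.

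Measured in counts rather than in transcripts, the composition of the libraries differed more between the groups than within them. The difference in composition between 2 libraries was measured as the percentage of counts that would have to be held by other transcripts to turn one library into the other. Between erastin and co-treated libraries it was 20.6% to 23.7% over 9 pairs. Within the erastin group it was 5.12% to 9.20% and within the co-treated group 3.81% to 5.98% (3 pairs each). The smallest difference between the groups was thus more than 2 times the largest within either of them. Pairs of untreated libraries differed by 6.32% to 8.13%, and untreated and co-treated libraries by 10.2% to 13.1%. Between untreated and erastin libraries it was 21.7% to 25.8%.

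**Figure D3:**
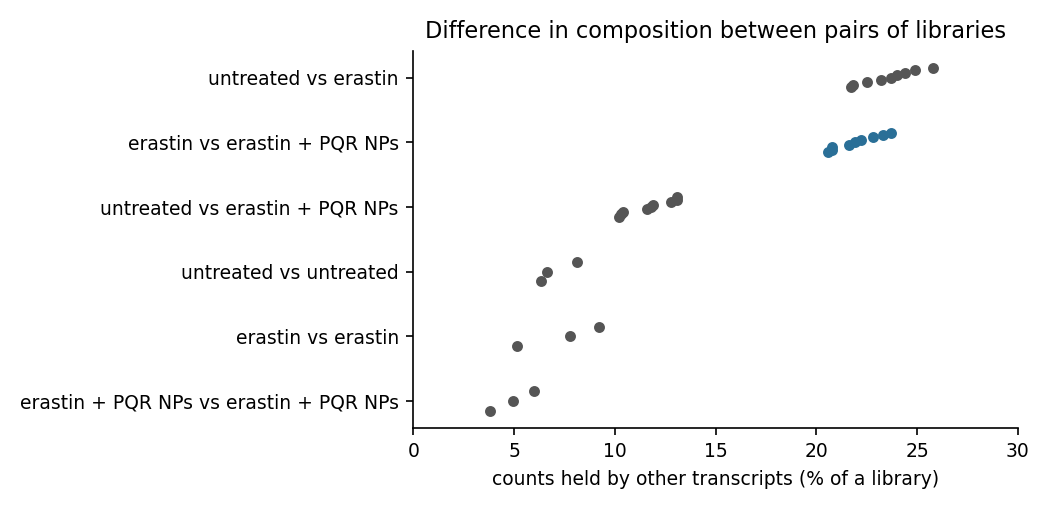
Each point is a pair of libraries, placed by the percentage of counts held by other transcripts (horizontal axis), with the pairs grouped by treatment on the vertical axis. The 9 pairs of erastin and co-treated libraries (blue) lie between 20.6% and 23.7%, clear of all pairs within a group.

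The movement was spread over many transcripts. On group means, 21.2 percentage points of the counts were gained and as many were lost on adding PQR NPs. Gain and loss are equal by construction, as shares are parts of a fixed total. It took 472 transcripts to account for 50% of the gain and 305 for 50% of the loss. The largest single loss was 1.11 percentage points, 5.21% of the total loss, and the largest single gain was 0.247 percentage points, 1.16% of the total gain. The 10 largest losses together made up 14.6% of the loss, and the 10 largest gains 7.28% of the gain.

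The called sets carried much of the RNA. The transcripts called higher held 29.4%, 28.6% and 27.6% of the counts in the erastin libraries and 47.0%, 47.1% and 46.9% in the co-treated ones. Those called lower held 38.1%, 39.5% and 40.4% with erastin and 19.9%, 20.1% and 20.2% with PQR NPs added. In untreated libraries the same sets held 43.7% to 47.3% and 19.0% to 22.9%. The treated libraries chose these sets, so their shares are a description with no test.

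Replicates of the co-treated group were the more alike. The median coefficient of variation across the 3 libraries of a group was 11.8% over tested transcripts in co-treated cells and 14.2% in both erastin and untreated cells. From 100 to 1000 CPM it was 5.32%, 7.63% and 8.51% in these groups, and at 1000 CPM or more 3.90%, 7.33% and 8.86%. Under 1 CPM the order differed, with 40.6% in co-treated, 38.1% in erastin and 44.5% in untreated cells. In composition, erastin replicate 1 stood apart from replicates 2 and 3, by 7.76% and 9.20% of counts. Replicates 2 and 3 differed by 5.12%, within the co-treated range of 3.81% to 5.98%. These differences in spread were not tested.

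Each co-treated library had fewer transcripts detected than any erastin library. At least 1 count was found for 20422, 20801 and 20864 transcripts in the erastin libraries and for 20140, 19938 and 19883 in the co-treated libraries, which held more counts. The groups did not overlap, and the mean was lower by 709 transcripts with PQR NPs (exact two-sided permutation p 0.1, which 3 against 3 libraries cannot go below; adjusted over 7 tests, 0.117). Counting only transcripts with at least 10 counts, the erastin libraries had 16470, 16514 and 16481 and the co-treated libraries 16313, 16260 and 16152. Untreated libraries had 19445 to 19740 at the lower limit.

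The most abundant transcripts, ranked over both groups together, took less of the co-treated libraries. The 10 transcripts with the highest mean over the 6 libraries took 7.10%, 7.26% and 7.93% of the counts with erastin. With PQR NPs they took 4.79%, 5.05% and 5.27%, and the groups did not overlap (exact permutation p 0.1, the smallest possible; 0.117 adjusted). The same 6 libraries ranked the transcripts, so a transcript high in only 1 group can enter the set. The second did so, with a mean of 12710 CPM with erastin and 1660 CPM with PQR NPs. The p-values for the 10 and the 100 are therefore no independent test, and another ranking could give another gap. Without the second most abundant transcript the shares were 5.90%, 6.08% and 6.50% against 4.62%, 4.89% and 5.10%, so that 1 transcript made up much of the gap. Among the rest, the third and ninth fell most in mean CPM, from 8502 to 3949 and from 6606 to 2519. The fourth and eighth had higher means with PQR NPs (4507 to 6770 and 4354 to 4871 CPM). The 100 most abundant transcripts took 21.03%, 21.30% and 22.06% with erastin and 20.18%, 20.59% and 20.99% with PQR NPs, a smaller gap that narrowly avoids overlap (exact permutation p 0.1; 0.117 adjusted). The number of transcripts that held 50% of the counts did overlap between the groups: the most abundant 804, 799 and 763 transcripts of the erastin libraries did so, and 802, 791 and 776 in the co-treated ones (exact permutation p 1).

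Among the 20 most abundant transcripts, 11 were called, 5 higher and 6 lower with PQR NPs, near the share over all tested transcripts (53.3%). For 1 of the 20 the change was shown to exceed 2-fold, against 12% of all tested. That one was second by abundance. It stood at 12080, 11730 and 14330 CPM with erastin and at 1686, 1653 and 1640 CPM with PQR NPs, against 388 to 487 CPM in untreated libraries. The fall was 7.95-fold (log2 fold change -2.99, SE 0.11, edgeR adjusted p 4.8e-05). The co-treated libraries lay between the untreated and the erastin libraries without touching either.

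The third by abundance fell from 10610, 6950 and 7952 CPM to 3734, 3847 and 4265 CPM (2.23-fold, edgeR adjusted p 0.0013), with untreated libraries at 2189 to 2519 CPM. The ninth had 4361, 7069 and 8388 CPM with erastin and 2308, 2459 and 2790 CPM with PQR NPs (2.73-fold lower, edgeR adjusted p 0.0040), against 3094 to 3926 CPM untreated. Here the co-treated libraries lay below the untreated ones. Its erastin libraries varied by nearly 2 times, and neither fall was shown to exceed 2-fold (adjusted p 0.31 and 0.12 in edgeR's test of that fold).

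The 15th by abundance was the largest rise among the 20. It went from 2071, 2119 and 1933 CPM to 4467, 4526 and 4528 CPM (2.13-fold, SE 0.059 on the log2 scale, edgeR adjusted p 7.6e-05), and the untreated libraries had 3822 to 4483 CPM. The 20th rose 1.93-fold, from 1692, 2026 and 1811 CPM to 3913, 3604 and 3563 CPM (edgeR adjusted p 0.00038), which placed all its co-treated libraries above the untreated 2342 to 2611 CPM.

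For 9 of the 20 no difference was called. The most abundant transcript of all had 12750, 15190 and 16180 CPM with erastin and 12100, 13900 and 14680 CPM with PQR NPs, groups that overlap (0.888 of the erastin level, 95% interval of the log2 difference -0.50 to 0.16, edgeR adjusted p 0.33). Over the 9, the intervals ran no lower than -0.91 and no higher than 0.43 on the log2 scale, within a 2-fold change on either side. Not all of the 9 can be taken as unchanged. The groups of the 16th did not overlap, and its interval was 0.014 to 0.403 (edgeR adjusted p 0.07). That of the sixth was -0.905 to -0.006 (edgeR adjusted p 0.082). The 14th and 19th stood at 2961 to 3628 and 2511 to 2983 CPM with PQR NPs and at 2835 to 4512 and 2500 to 3394 CPM with erastin, while untreated libraries had 6010 to 7880 and 5727 to 7120 CPM.

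**Figure D4:**
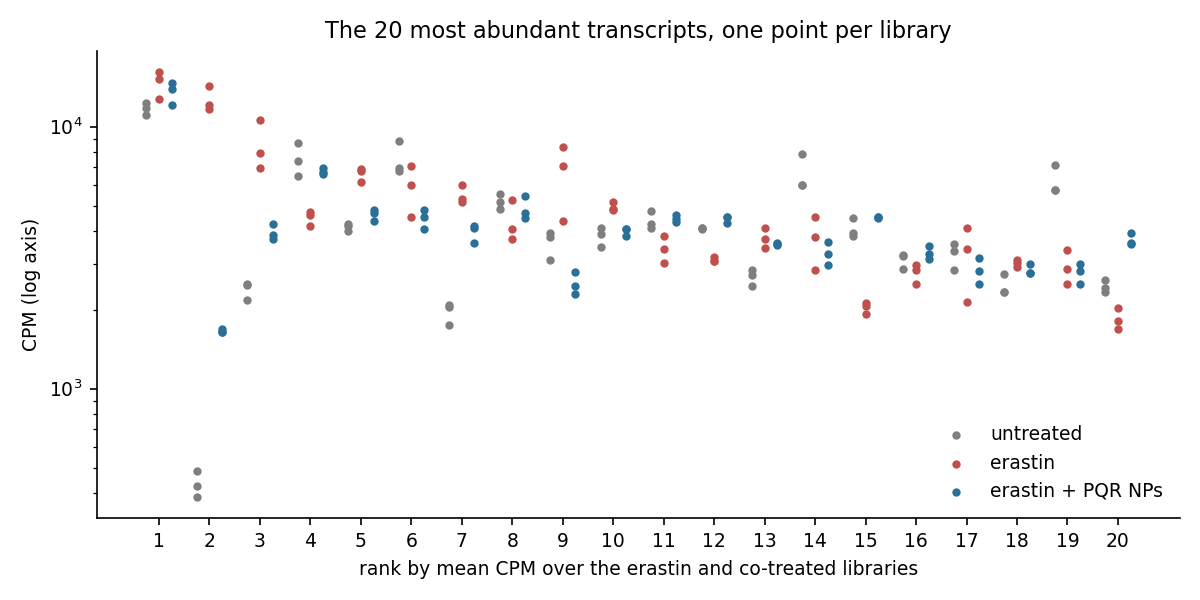
CPM (log axis) of the 20 transcripts with the highest mean over the erastin and co-treated libraries, ordered by rank, with 1 point per library in grey (untreated), red (erastin) and blue (erastin with PQR NPs). The second transcript drops from 11730 or more to 1686 or less, and the 14th and 19th show overlapping red and blue points below the grey ones.

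The largest changes were sought among called transcripts whose groups did not overlap, with a mean of at least 5 CPM in the higher group and at least 10 counts in each of the 6 libraries, so that both sides were measured. The condition was met by 3928 rises and 3579 falls. The 10 largest rises ran from 11.8-fold to 33.3-fold and the 10 largest falls from 18.4-fold to 164-fold. Mean levels of the 10 rises were 0.345 to 9.07 CPM with erastin, 6.05 to 143 CPM with PQR NPs and 4.38 to 120 CPM untreated. Those of the 10 falls were 13.1 to 446 CPM with erastin, 0.461 to 18.7 CPM with PQR NPs and 0.395 to 14.3 CPM untreated. In all 10 falls, and in 9 of the 10 rises, the untreated libraries were also clear of the erastin libraries on the side of the co-treated ones. The same erastin libraries stand in both contrasts, so this is no separate evidence.

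ENSRNOT00000091472 was the largest rise. It had 0.323, 0.486 and 0.748 CPM with erastin (12, 17 and 26 counts) and 17.2, 20.1 and 16.8 CPM with PQR NPs (677, 821 and 660 counts). The rise was 33.3-fold (log2 fold change 5.06, SE 0.35, edgeR adjusted p 0.00014). Untreated libraries were split, at 7.78, 16.8 and 0.654 CPM, with the last within the range of the erastin libraries. Whether reads were divided among its isoforms alike in these libraries was not tested.

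ENSRNOT00000052103, the second largest rise, went from 0.673, 0.572 and 0.661 CPM to 14.3, 12.1 and 13.3 CPM (log2 fold change 4.32, SE 0.17, edgeR adjusted p 4.8e-05). Its 3 untreated libraries, at 9.20, 9.12 and 7.22 CPM, lay below all co-treated and above all erastin libraries. Replicates were close in every group.

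ENSRNOT00000075681 fell from 141, 206 and 185 CPM with erastin to 2.19, 3.41 and 4.41 CPM with PQR NPs. The fall was 55.1-fold (log2 fold change -5.78, SE 0.32, edgeR adjusted p 8e-05), and the test of 2-fold gave an adjusted p of 0.00040. Untreated libraries had 3.31, 3.71 and 2.54 CPM, within the range of the co-treated ones.

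ENSRNOT00000084155 had the largest fitted fall, 164-fold, which rested on 1 library. Its erastin libraries had 1.75, 3.17 and 211 CPM (65, 111 and 7344 counts) and its co-treated libraries 0.356, 0.490 and 0.535 CPM. The log2 fold change was -7.36 with an SE of 2.2 (edgeR adjusted p 0.031), and it was not shown to exceed 2-fold (adjusted p 0.11 in edgeR's test of that fold). Without erastin replicate 3 it was -2.45, still called (edgeR adjusted p 0.00763). The call was lost without co-treated replicate 1, 2 or 3 (edgeR adjusted p 0.0985, 0.0966 and 0.0953; range over the 15 alternatives that gave one, 0.00763 to 0.0985). Untreated libraries had 0.373, 0.511 and 0.366 CPM.

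**Figure D5:**
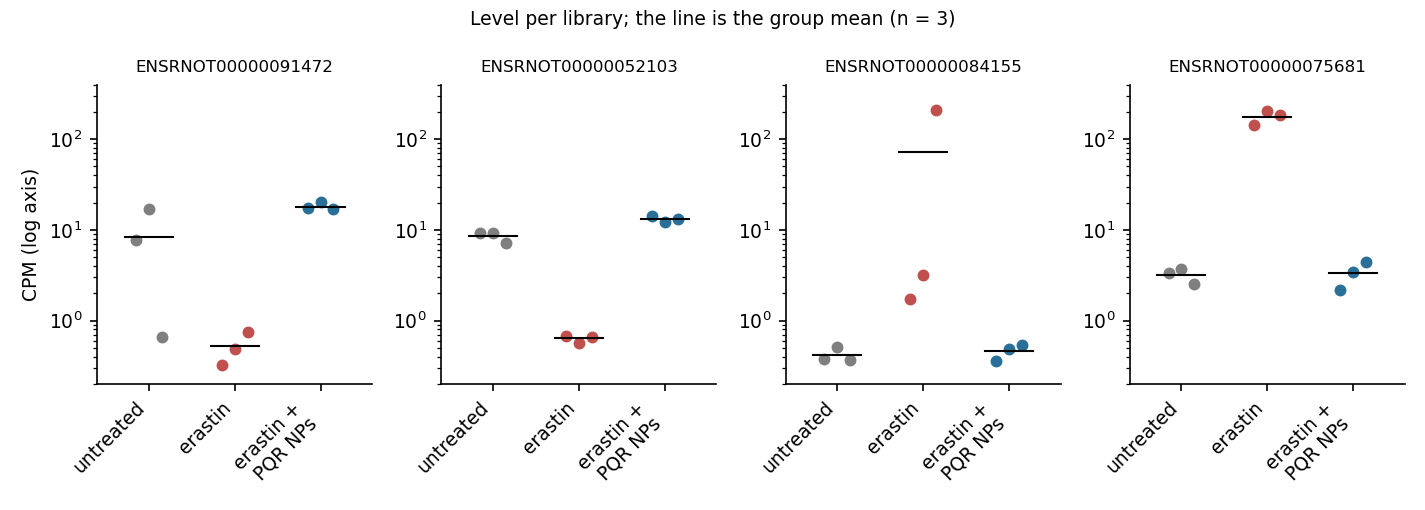
CPM per library (log axis, same scale in each panel) of the 2 largest rises (left) and 2 largest falls (right) measured on both sides, for untreated, erastin and erastin with PQR NPs; the line is the mean of 3 libraries. In the third panel 1 erastin library, at 211 CPM, stands far above the others, which are at 1.75 and 3.17 CPM.

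Some transcripts were counted in only 1 of the 2 groups. No erastin library had a count for 12 of the transcripts called higher, and no co-treated library had one for 49 of those called lower. Such transcripts pass the filter on low counts only through the group that has them, so that all of the tested ones were called. The 12 stood at group means of 0.400 to 13.5 CPM with PQR NPs, 4 of them at 5 CPM or more. The 49 stood at 0.317 to 320 CPM with erastin, 12 of them at 5 CPM or more. The floor for a library at 0 was set at 3 counts, or 0.0735 to 0.0863 CPM, and covers counting error only. The group means of the 12 with PQR NPs were 4.75-fold to 160-fold above that floor, and those of the 49 with erastin 4.21-fold to 4240-fold above it. These ratios of means leave out the spread between libraries and are no lower bounds on the change. Not all of the 49 were shown to exceed 2-fold (highest adjusted p 0.13 when edgeR tested that fold). That value belongs to a transcript at 0.296, 0.429 and 7.65 CPM with erastin, whose mean was 37-fold above the floor.

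Untreated cells had these transcripts to different degrees. Of the 49 that were gone with PQR NPs, 21 were at 0 in every untreated library, 26 in some of them, and 2 had counts in all. Of the 12 that appeared with PQR NPs, 0 were at 0 in every untreated library, 7 were at 0 in some and 5 had counts in all. A switch between 0 and a clear level also occurred among replicates: 148 tested transcripts were at 0 in 1 library and at 10 CPM or more in another of the same group, 87 within erastin and 82 within the co-treated libraries. Of these 148, 1 was called (0.676%), against 53.3% of all tested transcripts. They were chosen for a wide spread within a group, which by itself makes a call unlikely.

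The calls differed in how far they depended on single libraries. Of the 8838, 6627 (75%) were called in the same direction whichever of the 6 libraries was left out. Leaving out 1 library gave 7276 to 8632 calls, the fewest without co-treated replicate 2. In no alternative was a called transcript called in the opposite direction.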

How the data were processed

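The authors deposited 1 table of raw counts in whole numbers. Its rows are Ensembl rat transcripts and its columns libraries, per the file headers; all columns were matched by title. Oligo(dT)-selected RNA was read from both ends on a NovaSeq, per the labels' protocols. HISAT2 2.2.1 and Rnor 6.0 are named in the submitters' processing notes without a role; the counting program, its use of strand and its treatment of reads shared by several transcripts are, in the sources used here, not given. A count can therefore move with how reads were divided among isoforms, near-identical copies or overlapping transcripts.

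The 6 libraries held 34772755 to 40826754 counts. CPM are on total counts. edgeR 4.0.16 (R 4.3.3, limma 3.58.1) was used for the main fit on the 6 libraries, with its own filter on low counts, TMM scaling (factors 0.961 to 1.03), a quasi-likelihood test, its test against a stated fold, and Benjamini-Hochberg adjustment; the common biological coefficient of variation was 34.9%. The fit was tested on simulated data. There far fewer transcripts changed than were called here, with rises and falls balanced. The simulation therefore does not test the scaling under changes as broad as those in these libraries. DESeq2 1.42.0 was an alternative. Library values were tested by exact permutation, two-sided. No replicates of the erastin or the co-treated group agreed within sampling noise (chi-square per degree of freedom 33.8 to 77.2). Untreated replicates were not checked in this way. The members, rules and tests were chosen with earlier results of these data known. The printed IDs are the 2 largest rises and 2 largest falls by the rule given with them; the 20 most abundant and 10 largest changes are given by rank. Gene lists and promoter sequences were not used, as no ID could be paired with a gene.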

Additional observations from a re-analysis of the deposited data

How the results depend on the processing

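Over the 16 alternatives to the main fit, 6244 to 9249 transcripts were called, 3062 to 4748 higher and 3182 to 4736 lower, and the share of rises was 46.8% to 53.2%. DESeq2 called 9249, and the fit with all 9 libraries 8764, of which 8358 were among the 8838. Leaving out 1 library gave 7276 to 8632 calls. The count beyond 2-fold was 1101 at an adjusted p of 0.01 in place of 1998 and within 1.5 times otherwise. With no filter on low counts the median log2 difference over all transcripts was -0.132, against -0.00562. Replicate numbers paired the libraries weakly if at all. Deviations from the group means correlated at 0.0883, 0.0239 and 0.0456 for equal numbers and at -0.071 to 0.0271 for unequal ones. Erastin replicate 2 correlated best with another number. With the replicate block 8353 transcripts were called, and the call of ENSRNOT00000084155 was lost (log2 fold change -4.56, edgeR adjusted p 0.0964); it also failed at 0.01. The other 3 printed transcripts kept direction and call in all 16. Co-treated minus erastin, the mean number of transcripts detected differed by -815 after thinning to equal totals and by -247 with at least 10 counts, against -709. The share of the 10 most abundant transcripts differed by -1.29 percentage points without the second transcript, against -2.39. With tiers set on untreated libraries 644 in place of 363 falls lay under 1 CPM and 13 in place of 24 at 1000 CPM or more. Leaving out transcripts that switch within a group (8916 called), and leaving out the second transcript, were chosen after seeing the data. Depth limits what could be called at low counts.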
